A study of Mus musculus with 7 samples.

Results

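Antioxidant enzymes, the enzymes that make and use glutathione, and the proteins that store or bind metals were followed as 1 set of 39 mouse genes in hippocampus and cortex. The members were taken by gene symbol from a count table of 20859 genes, and all 39 were found there. By role they comprise 2 regulators, 4 genes of superoxide dismutases and catalase, 6 peroxiredoxins, 4 genes of the thioredoxin system, 3 glutathione peroxidases, 6 genes of glutathione synthesis and NADPH supply, 6 glutathione transferases, 3 heme and quinone enzymes, 2 ferritin subunits and 3 metallothioneins. The RNA came from 24 mice of a study that targeted CD38, an enzyme that consumes NAD, in a model of Alzheimer's disease. Mice of the genotype labelled FAD had received either the agent labelled CD38 (FAD CD38, 7 hippocampi and 7 cortices) or IgG (FAD IgG, 7 hippocampi and 7 cortices). Mice labelled WT had received PBS (8 hippocampi and 9 cortices). The FAD alleles and the promoters that drive them, the strain, the age of the mice and the dose were not given in the sources used here. Genotype and injection both differ between the FAD groups and the WT mice, so that their parts in a difference cannot be told apart. Both FAD groups were set against the same WT mice. Only the comparison of FAD CD38 with FAD IgG mice differs, by the labels, in the injected agent alone. The labels of 1 further mouse contradict each other (CD38 in one place, IgG in another). Its 2 wells entered no comparison between groups.

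NRF2, the product of Nfe2l2, is a transcription factor that its adaptor KEAP1 holds in the cytoplasm and sends for degradation. Oxidants and electrophiles release it to switch on many of the enzymes in this set. Superoxide dismutases turn superoxide into hydrogen peroxide, which catalase, peroxiredoxins and glutathione peroxidases remove. The peroxiredoxins and glutathione peroxidases do so with electrons that come from NADPH through thioredoxin or glutathione. Ferritin stores iron in a form that cannot drive radical chemistry, heme oxygenase releases iron from heme, and metallothioneins bind zinc and copper through their cysteines. In the brain, astrocytes are known as the main source of glutathione for neurons, microglia and oligodendrocytes as stores of iron, and metallothionein 3 as a form enriched in neural tissue.

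Promoter sequence is shown for the regulator and for the 3 metallothioneins, because Nfe2l2, Mt1 and Mt2 are among the members that differed between FAD and WT mice while Mt3, from the same gene cluster on chromosome 8, was not called between them. Each window runs from 250 bases before to 50 bases after the annotated start of the gene, 5′ to 3′ on the strand of the gene, and was taken from RefSeq on GRCm38.p6. Capitals mark the core of the metal response element, TGCACNC or TGCGCNC on either strand, in the metallothioneins, and the core of the antioxidant response element, TGACNNNGC, in Nfe2l2.
Mt1, chr8:94178839-94179138, plus strand: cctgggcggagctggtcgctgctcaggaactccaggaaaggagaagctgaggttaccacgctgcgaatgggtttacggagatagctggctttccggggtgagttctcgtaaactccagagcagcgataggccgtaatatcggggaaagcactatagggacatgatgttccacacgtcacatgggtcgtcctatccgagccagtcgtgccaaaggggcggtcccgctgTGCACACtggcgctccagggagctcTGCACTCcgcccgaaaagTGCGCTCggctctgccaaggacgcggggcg
Mt2, chr8:94172368-94172667, plus strand: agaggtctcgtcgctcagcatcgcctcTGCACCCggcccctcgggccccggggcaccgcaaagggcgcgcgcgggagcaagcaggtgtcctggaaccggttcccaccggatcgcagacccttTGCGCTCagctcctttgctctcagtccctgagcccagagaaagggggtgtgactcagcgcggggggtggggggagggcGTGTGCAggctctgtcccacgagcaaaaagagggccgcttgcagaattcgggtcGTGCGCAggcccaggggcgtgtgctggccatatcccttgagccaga
Mt3, chr8:94152357-94152656, plus strand: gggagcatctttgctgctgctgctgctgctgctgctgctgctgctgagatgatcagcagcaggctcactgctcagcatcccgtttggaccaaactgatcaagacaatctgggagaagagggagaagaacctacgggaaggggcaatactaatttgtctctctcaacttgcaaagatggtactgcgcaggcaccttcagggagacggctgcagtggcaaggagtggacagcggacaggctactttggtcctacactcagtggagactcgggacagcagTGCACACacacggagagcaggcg
Nfe2l2, chr2:75704614-75704913, minus strand: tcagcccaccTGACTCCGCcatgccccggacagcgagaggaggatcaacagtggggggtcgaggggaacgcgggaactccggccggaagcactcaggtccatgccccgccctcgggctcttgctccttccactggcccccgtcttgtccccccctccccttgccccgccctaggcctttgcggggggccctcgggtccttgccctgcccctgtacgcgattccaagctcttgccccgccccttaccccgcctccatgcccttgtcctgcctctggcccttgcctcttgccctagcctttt
The metal response core occurred 3 times in the Mt1 window, 4 times in the Mt2 window and 1 time in the Mt3 window, where it lay 28 bases past the start. The Mt2 window also held 1 antioxidant response core, 79 bases before the start, which is left in lower case. Windows were at hand for 33 of the 39 members, in 43 windows counting alternative starts, and those of Hmox1, Gsta4, Prdx6, Gclc, Sod3 and Gsr were not used here. Searched on both strands, the antioxidant response core was in 23.3% of the members' windows, against 12.4% of the 32851 windows of all genes. It occurred at 10 members, which were G6pdx, Gclm, Gstm5, Mgst1, Mt2, Nfe2l2, Prdx1, Sod1, Srxn1 and Txnrd1. A metal response core of either form was in 23.3% of the members' windows, against 25.7% of the windows of all genes. A run of letters that matches 1 form cannot match the other on the same strand, and no matches overlap in the windows printed. Of other members called between FAD and WT mice, Gpx1, Ftl1, Fth1 and Txn2 had neither core in their windows. The window of Gstm5, which was lower in FAD mice, held 1 core of each kind. A match is only a run of letters, not a site at which a factor was measured, and its relation to the members' levels was not tested.

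Levels are given as CPM, a gene's count scaled by the total of its well, from an assay that tags the 3' ends of RNAs, so they are compared between mice and not between genes. Totals ran from 1270918 to 5101368 counts a well. Of the 39 members, 38 passed the filter on low counts in each region, and Hmox1 did not. Ribosomal RNA took 2.91% to 23.7% of the counts, a share that includes the mitochondrial ribosomal RNAs mt-Rnr1 and mt-Rnr2. Of the wells 6 stood above 10%, with the WT hippocampus of mouse 2756 the highest and the FAD CD38 hippocampus of mouse 2632 at 17.2%. The hippocampus of mouse 2632 also held the most RNA of choroid plexus markers, which summed to 31.8 to 15636 CPM over FAD CD38 hippocampi and 40.1 to 8855 CPM over FAD IgG hippocampi, against 54.4 to 299 CPM over WT hippocampi. These 2 hippocampi stood apart from their groups in 18 (mouse 2632) and 21 (mouse 2756) of the members' levels, and the members' hippocampal calls between FAD and WT mice are therefore also given without them. Since the members' own levels set them apart, the fits without them describe the data and are not a separate test. Markers of hippocampal subfields summed to 244 to 569.7 CPM in the hippocampi of the 3 groups, against 43.3 to 83.8 CPM in the cortices, as the labels have it. Several members, among them Prdx6, Ftl1, Fth1, Gstm1, Gstm5 and Gstp1, have near-identical family members or processed copies in the mouse genome, and how the counting treated shared reads is not stated. Their values are uncertain to that extent.

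In the hippocampus 6 members rose in FAD CD38 mice relative to WT mice and none fell. They were Nfe2l2, the antioxidant enzymes Prdx6 and Gpx1, the ferritin light chain Ftl1 and the metallothioneins Mt1 and Mt2. The same 6 members rose in FAD IgG hippocampi relative to WT hippocampi, and none fell. Over all genes tested in hippocampus, 4.56% rose and 0.754% fell in FAD CD38 mice, and 4.48% rose and 0.416% fell in FAD IgG mice. A call is an adjusted p under 0.05 by edgeR's quasi-likelihood test, with Benjamini-Hochberg adjustment over all genes. In the cortex 3 members rose (Nfe2l2, Prdx6 and Mt2) and 1 fell (Gstm5, a glutathione transferase of the mu class) in FAD CD38 mice, against 3.3% and 1.23% of all genes. The same 3 rose and Gstm5 fell in FAD IgG cortices, against 3.34% and 0.532% of all genes. The 2 sets of calls share their WT mice and are not independent of each other. Without the hippocampi of mice 2756 and 2632, the 6 hippocampal calls remained, with log2 fold changes of 0.55 to 1.14 (adjusted p up to 0.00276) in FAD CD38 and 0.58 to 1.11 (adjusted p up to 0.00489) in FAD IgG mice. Counts of members that fell in hippocampus varied with the setting. By edgeR, 3 members were lower in FAD CD38 and 2 in FAD IgG hippocampi at an unadjusted p under 0.05. Members called lower numbered 0 and 0 by DESeq2, 4 and 2 by voom with sample quality weights, and 1 and 2 by edgeR without the hippocampi of mice 2756 and 2632, in FAD CD38 and FAD IgG mice. In the last of these settings Gstm5 was the 1 in FAD CD38 mice and among the 2 in FAD IgG mice, where the other is not named here. Shares of all genes are not given for these settings, so the counts do not set the members apart from other genes.

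The medians of the members lay within 0.1 of those of all genes on the log2 scale. In FAD CD38 mice the median log2 fold change over the members tested was 0.09 in hippocampus, beside 0.01 over all genes, and 0.02 in cortex, beside 0.01 over all genes. In FAD IgG mice it was 0.08 in hippocampus, beside 0.00, and -0.00 in cortex, beside 0.01. Of the 38 members tested, 23 had a log2 fold change above 0 in FAD CD38 and 22 in FAD IgG hippocampi, beside 51.5% and 50.5% of all genes. In cortex 20 did in FAD CD38 and 19 in FAD IgG mice, beside 52.5% and 51.7% of all genes. Markers of microglia, and some of astrocytes, differed between FAD and WT mice in both regions as well. Of 18 microglia markers, 15 rose in FAD CD38 hippocampi and 17 in FAD IgG hippocampi. Their summed level was 1804 to 3692 CPM in FAD CD38 and 2726 to 3651 CPM in FAD IgG hippocampi, against 468 to 829 CPM in WT hippocampi. In cortex 15 and 16 of the 18 rose in FAD CD38 and FAD IgG mice, with sums of 1982 to 3637 CPM in FAD CD38 and 2250.2 to 3521 CPM in FAD IgG cortices, against 671 to 899 CPM in WT cortices. Of 16 astrocyte markers, 3 rose in FAD CD38 and 6 in FAD IgG hippocampi. Their sums were 4708 to 6243 CPM in FAD CD38 and 5752 to 6408 CPM in FAD IgG hippocampi, against 4226 to 5007 CPM in WT hippocampi. In cortex 2 astrocyte markers rose in each FAD group and 1 fell in FAD CD38 mice. Of 14 oligodendrocyte markers 1 rose in each FAD group in each region, and of 9 markers of their precursors 1 rose in FAD CD38 hippocampi and 0 in the other comparisons with WT mice. None of the microglia or astrocyte markers was at 0 throughout a group, and the part of these cells in the members' differences was not tested. In pieces of tissue such as these, more cells of a type and more RNA per cell cannot be told apart.

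**Figure D1:**
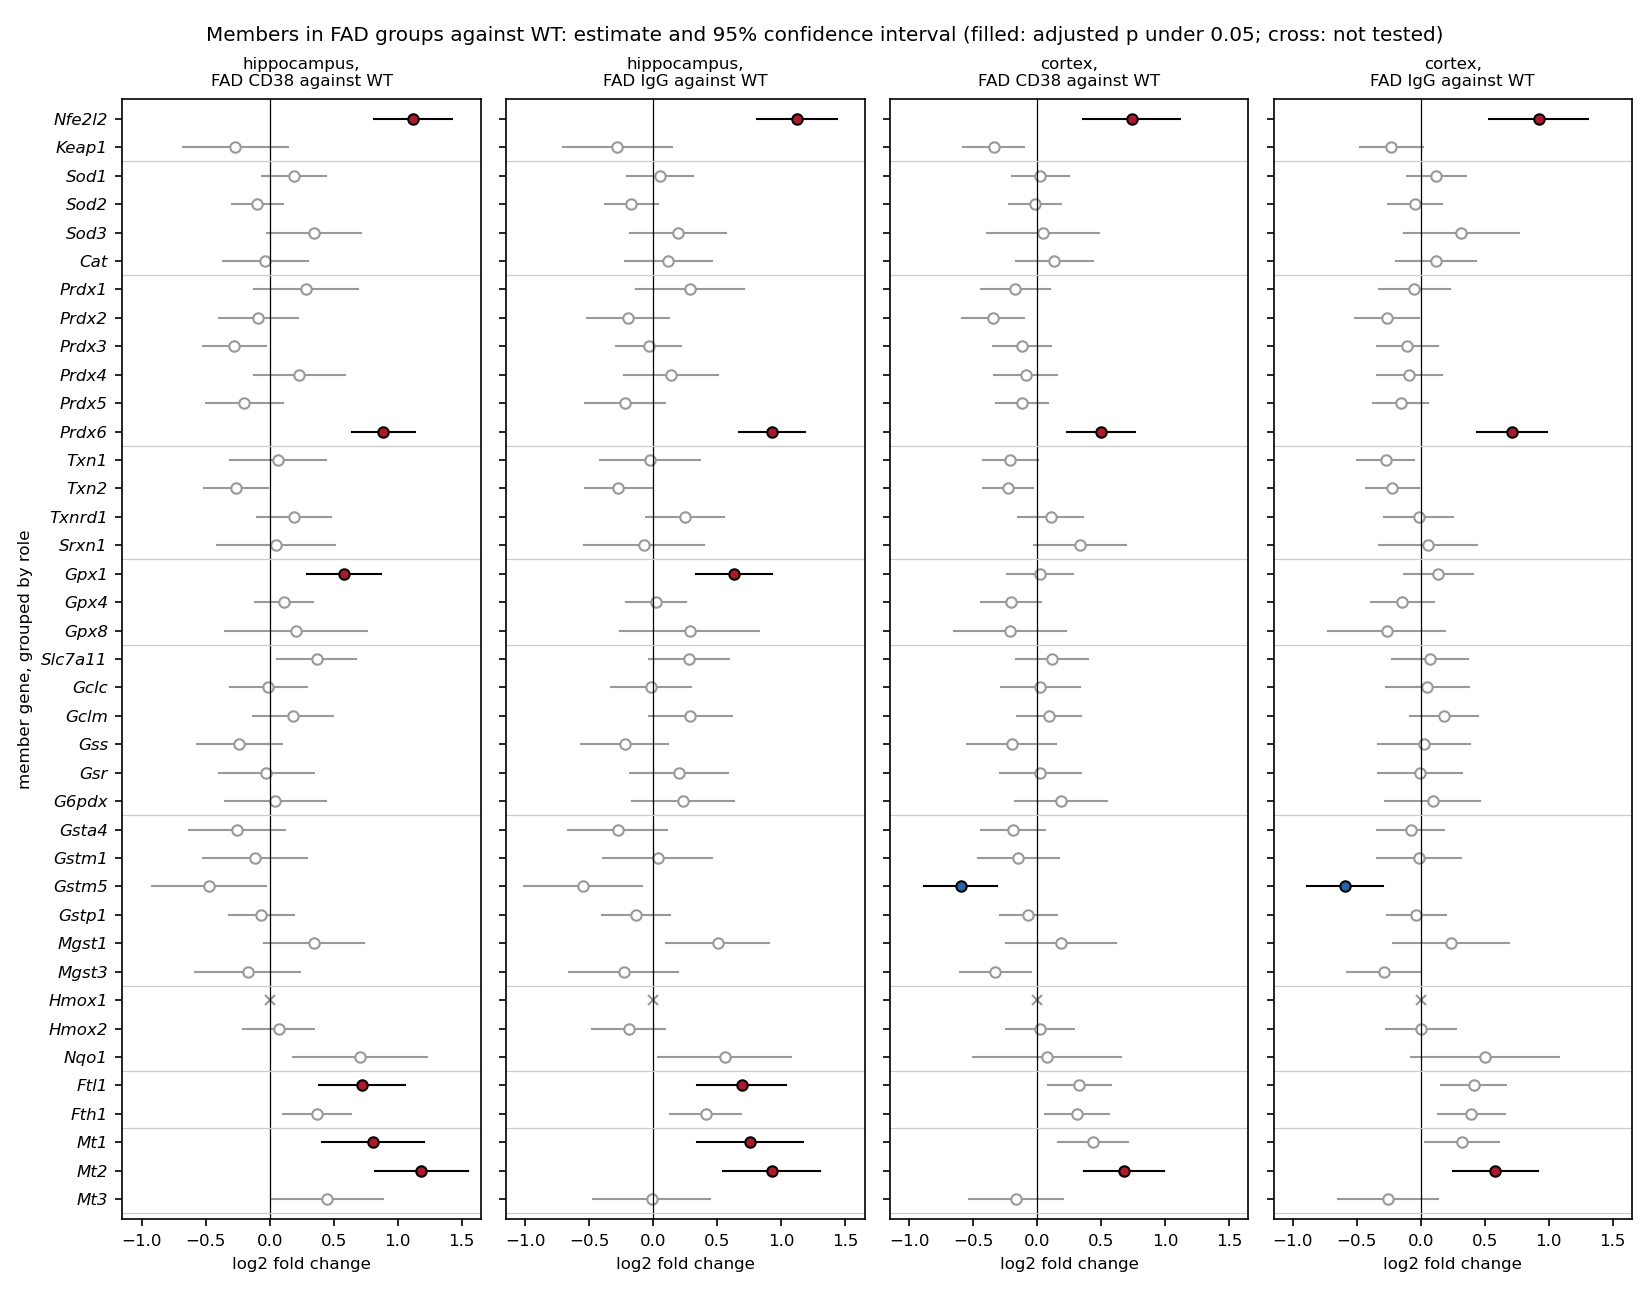
Log2 fold changes of the 39 members against WT mice, in FAD CD38 hippocampi, FAD IgG hippocampi, FAD CD38 cortices and FAD IgG cortices. Points are estimates and bars 95% intervals from edgeR, members are grouped by role, filled points have an adjusted p under 0.05, and the cross marks Hmox1, which did not pass the filter on low counts. Nfe2l2, Prdx6 and Mt2 are filled in all 4 panels, and Gstm5 lies at -0.60 and -0.59 in the cortex panels.

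Among the regulators, Nfe2l2, which encodes NRF2, was higher in FAD than in WT mice in both regions. Given as lowest, median and highest level of a group, as for every gene that follows, Nfe2l2 measured 13.3, 20.7 and 22.9 CPM in FAD CD38 and 12.8, 21.7 and 25.8 CPM in FAD IgG hippocampi, against 7.02, 8.41 and 11.0 CPM in WT hippocampi. Every FAD hippocampus of either group lay above every WT hippocampus. The log2 fold change with its standard error was 1.12 ± 0.15 (adjusted p = 2.33e-05) in FAD CD38 mice and 1.12 ± 0.15 (adjusted p = 2.94e-05) in FAD IgG mice. Nfe2l2 was higher than WT in 7 of 7 and 6 of 6 library pools. In cortex it measured 7.11, 18.3 and 27.7 CPM in FAD CD38 and 14.3, 20.7 and 27.5 CPM in FAD IgG cortices, against 5.45, 10.8 and 13.5 CPM in WT cortices. FAD IgG cortices lay wholly above WT cortices, whereas the lowest FAD CD38 cortex, from mouse 2632, lay within the WT range. The cortical log2 fold changes were 0.74 ± 0.18 (adjusted p = 0.0166) in FAD CD38 mice and 0.92 ± 0.19 (adjusted p = 0.00252) in FAD IgG mice. Each of the 7 library pools was also left out in turn, and the cortical call in FAD CD38 mice ended without pool 6, 8, 10 or 11 (log2 fold changes 0.59 to 0.76, adjusted p = 0.0521 to 0.103). Keap1, the adaptor that marks NRF2 for degradation, was not called. Its hippocampal levels were 17.5, 41.4 and 46.1 CPM in FAD CD38 and 22.9, 40.5 and 51.0 CPM in FAD IgG hippocampi, against 16.5, 51.5 and 53.7 CPM in WT hippocampi. These ranges overlapped, but the lowest FAD CD38 level was that of mouse 2632 and the lowest WT level that of mouse 2756. The other hippocampi ran from 33.7 to 46.1 CPM in FAD CD38 and from 41.2 to 53.7 CPM in WT mice, a partial overlap. Its cortical levels were 28.0, 33.4 and 43.8 CPM in FAD CD38 and 33.0, 37.8 and 41.6 CPM in FAD IgG cortices, against 30.0, 42.8 and 58.2 CPM in WT cortices. For Keap1 the log2 fold changes were -0.27 ± 0.20 (adjusted p = 0.515) and -0.28 ± 0.20 (adjusted p = 0.577) in FAD CD38 and FAD IgG hippocampi, and -0.34 ± 0.12 (adjusted p = 0.0955) and -0.23 ± 0.12 (adjusted p = 0.374) in FAD CD38 and FAD IgG cortices.

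**Figure D2:**
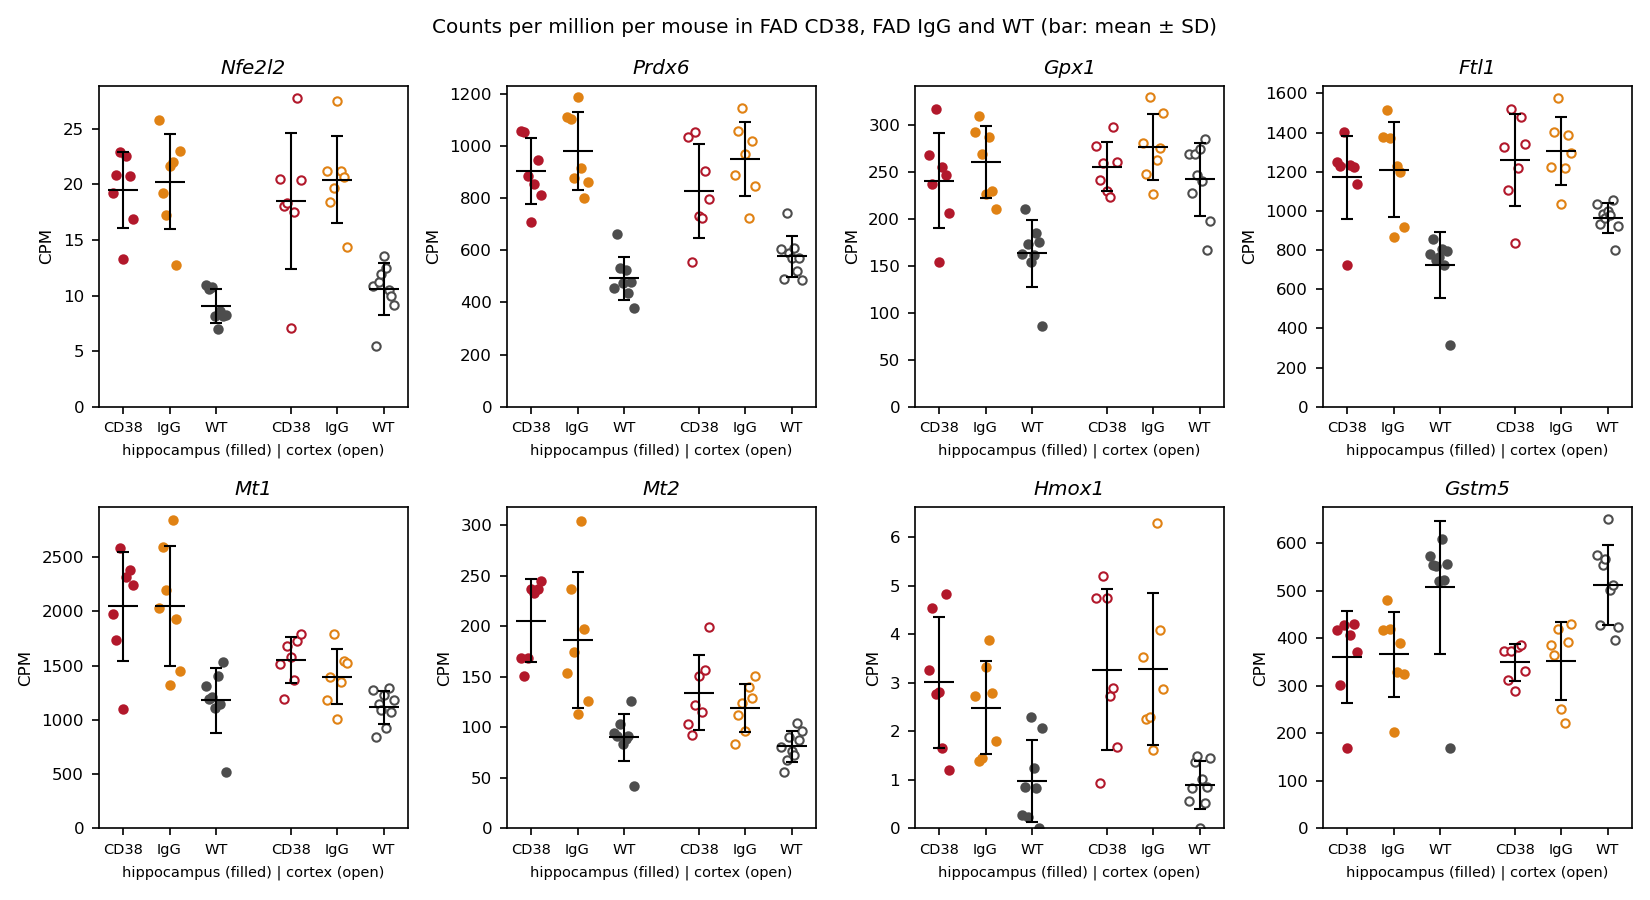
Levels of 8 members in each mouse, in CPM, for FAD CD38, FAD IgG and WT mice, with hippocampus filled and cortex open, and bars at the group mean ± SD. Nfe2l2 and Prdx6 are higher in every FAD hippocampus than in any WT hippocampus, and Gstm5 is lower in every FAD CD38 cortex than in any WT cortex.

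Neither the superoxide dismutases nor catalase passed the test between FAD and WT mice in either region. Sod1, the cytosolic copper and zinc enzyme, measured 224, 259 and 392 CPM in FAD CD38 and 207, 267 and 288 CPM in FAD IgG hippocampi, against 200.5, 245 and 281 CPM in WT hippocampi. In cortex Sod1 measured 270.4, 302 and 371 CPM in FAD CD38 and 235, 323 and 370.5 CPM in FAD IgG cortices, against 261, 302 and 367 CPM in WT cortices. Its ranges overlapped in each comparison, with log2 fold changes of 0.19 ± 0.12 and 0.05 ± 0.12 in FAD CD38 and FAD IgG hippocampi and 0.03 ± 0.11 and 0.12 ± 0.11 in FAD CD38 and FAD IgG cortices. Cat, the peroxisomal catalase, measured 20.3, 30.5 and 36.1 CPM in FAD CD38 and 29.4, 33.2 and 44.6 CPM in FAD IgG hippocampi, against 14.0, 34.4 and 40.5 CPM in WT hippocampi. In cortex Cat measured 23.2, 29.4 and 39.6 CPM in FAD CD38 and 14.9, 35.1 and 41.6 CPM in FAD IgG cortices, against 21.6, 27.6 and 31.4 CPM in WT cortices. Its log2 fold changes were -0.03 ± 0.16 and 0.12 ± 0.16 in the hippocampi of FAD CD38 and FAD IgG mice and 0.14 ± 0.15 and 0.12 ± 0.15 in their cortices. Over the 4 genes, which include the mitochondrial Sod2 and the secreted Sod3, log2 fold changes ran from -0.10 to 0.35 in FAD CD38 and from -0.17 to 0.20 in FAD IgG hippocampi, with smallest adjusted p-values of 0.315 and 0.461. In cortex they ran from -0.01 to 0.14 in FAD CD38 and from -0.04 to 0.32 in FAD IgG mice.

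Of the 6 peroxiredoxins, Prdx6 alone was called. It is the 1-cysteine member, which takes its electrons from glutathione and also acts on phospholipids. Prdx6 measured 708, 886 and 1055 CPM in FAD CD38 and 802, 916 and 1189 CPM in FAD IgG hippocampi, against 380.0, 475 and 662 CPM in WT hippocampi. No FAD hippocampus reached down into the WT range. The log2 fold changes were 0.89 ± 0.12 (adjusted p = 2.84e-05) in FAD CD38 and 0.92 ± 0.12 (adjusted p = 2.89e-05) in FAD IgG hippocampi, with a higher level than WT in 7 of 7 and 6 of 6 pools. In cortex Prdx6 measured 556, 797 and 1053 CPM in FAD CD38 and 722, 971 and 1145 CPM in FAD IgG cortices, against 488, 571 and 745 CPM in WT cortices, and the ranges of both FAD groups overlapped that of WT mice. The cortical log2 fold changes were 0.50 ± 0.13 (adjusted p = 0.0214) in FAD CD38 mice and 0.71 ± 0.13 (adjusted p = 0.000889) in FAD IgG mice. The cortical call in FAD CD38 mice ended without pool 6, 8 or 11 (log2 fold changes 0.41 to 0.48, adjusted p = 0.0693 to 0.13), and no alternative tried ended the other 3 calls of Prdx6. The thioredoxin-dependent peroxiredoxins, the cytosolic Prdx1 and Prdx2, the mitochondrial Prdx3, Prdx4 of the endoplasmic reticulum and Prdx5, had log2 fold changes from -0.28 to 0.28 in FAD CD38 hippocampi and from -0.34 to -0.09 in FAD CD38 cortices.

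In the thioredoxin system, no gene was called in either region alone. Txn2, mitochondrial thioredoxin, was the 1 member of this role called in the mean of both regions, where limma with the mouse as a block joins the hippocampus and cortex of each mouse. In that fit, where Hmox1 could pass the filter only by being high in FAD mice, 6 of the other 38 members rose and 2 fell in FAD CD38 mice, beside 5.9% and 2.99% of all genes. Of the same 38 members 7 rose and 2 fell in FAD IgG mice, beside 5.96% and 2.19% of all genes. Txn2 measured 72.8, 136 and 153 CPM in FAD CD38 and 108, 128 and 155 CPM in FAD IgG hippocampi, against 105, 154 and 187 CPM in WT hippocampi. In cortex it measured 126, 153 and 178 CPM in FAD CD38 and 108, 158 and 185 CPM in FAD IgG cortices, against 155, 173 and 191 CPM in WT cortices, and all these ranges overlapped those of WT mice. Its log2 fold change in the mean of both regions was -0.26 ± 0.08 (adjusted p = 0.0317) in FAD CD38 mice and -0.26 ± 0.08 (adjusted p = 0.0458) in FAD IgG mice. The call in FAD CD38 mice ended without pool 5, 6, 7, 9, 10 or 11 and without wells rich in choroid plexus RNA (log2 fold changes -0.26 to -0.20, adjusted p = 0.0694 to 0.115). The call in FAD IgG mice ended without pool 5, 6, 9, 10 or 11, without wells above 10% ribosomal RNA and with no term for the pool (log2 fold changes -0.28 to -0.20, adjusted p = 0.0567 to 0.216). For the cytosolic thioredoxin Txn1, its reductase Txnrd1 and sulfiredoxin Srxn1, which repairs overoxidised peroxiredoxins, adjusted p-values in hippocampus and cortex were 0.201 or higher.

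Gpx1, the cytosolic glutathione peroxidase that reduces hydrogen peroxide, rose in hippocampus. It measured 154, 246 and 317 CPM in FAD CD38 and 211, 269 and 309.6 CPM in FAD IgG hippocampi, against 86.4, 167 and 210.4 CPM in WT hippocampi. FAD IgG hippocampi lay wholly above WT hippocampi, and the ranges of FAD CD38 and WT hippocampi overlapped. Its log2 fold changes were 0.58 ± 0.14 (adjusted p = 0.0133) in FAD CD38 and 0.63 ± 0.14 (adjusted p = 0.00854) in FAD IgG hippocampi. The call in FAD CD38 mice ended without pool 9 and with only 2 groups in the fit (log2 fold changes 0.54 to 0.59, adjusted p = 0.0589 to 0.0591), and that in FAD IgG mice without pool 5 (log2 fold change 0.58, adjusted p = 0.0531). In cortex Gpx1 measured 223, 259.5 and 298 CPM in FAD CD38 and 227, 275 and 329 CPM in FAD IgG cortices, against 167, 247 and 285 CPM in WT cortices, with log2 fold changes of 0.02 ± 0.12 (adjusted p = 0.95) in FAD CD38 and 0.14 ± 0.13 (adjusted p = 0.674) in FAD IgG mice. Gpx1 rose in FAD IgG mice in the mean of both regions, by 0.39 ± 0.11 (adjusted p = 0.0137), a call that ended without pool 5 or 10 (log2 fold changes 0.37 to 0.38, adjusted p = 0.0521 to 0.0592). The same estimate in FAD CD38 mice was 0.30 ± 0.10 (adjusted p = 0.0519). Gpx4, the selenoenzyme that reduces lipid peroxides and restrains ferroptosis, was not called in any of these comparisons. It measured 112, 132 and 145 CPM in FAD CD38 and 108, 134 and 157 CPM in FAD IgG hippocampi, against 72.0, 127 and 148 CPM in WT hippocampi. In cortex Gpx4 measured 108, 128 and 176 CPM in FAD CD38 and 112, 141 and 157 CPM in FAD IgG cortices, against 115, 151 and 194 CPM in WT cortices. For Gpx4 the log2 fold changes were 0.11 ± 0.11 and 0.02 ± 0.11 in FAD CD38 and FAD IgG hippocampi and -0.20 ± 0.11 and -0.15 ± 0.12 in FAD CD38 and FAD IgG cortices. Gpx8, of the endoplasmic reticulum, had adjusted p-values of 0.621 or higher.

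The 6 genes of glutathione synthesis and NADPH supply were not called in any comparison of FAD with WT mice. Slc7a11, the cystine transporter that feeds glutathione synthesis, measured 13.3, 18.2 and 27.4 CPM in FAD CD38 and 16.8, 17.2 and 22.6 CPM in FAD IgG hippocampi, against 12.4, 15.7 and 18.0 CPM in WT hippocampi. Gclc, the catalytic subunit of glutamate-cysteine ligase, measured 22.9, 28.8 and 32.2 CPM in FAD CD38 and 20.8, 28.1 and 34.0 CPM in FAD IgG hippocampi, against 22.6, 27.7 and 40.9 CPM in WT hippocampi. Gclm, its modifier subunit, measured 37.8, 38.6 and 51.1 CPM in FAD CD38 and 39.6, 41.5 and 56.4 CPM in FAD IgG hippocampi, against 27.7, 37.8 and 53.5 CPM in WT hippocampi. The FAD and WT ranges overlapped for each of these genes. Their log2 fold changes in FAD CD38 hippocampi were 0.37 ± 0.15 for Slc7a11, -0.01 ± 0.14 for Gclc and 0.18 ± 0.15 for Gclm. In FAD IgG hippocampi they were 0.28 ± 0.15 for Slc7a11, -0.02 ± 0.15 for Gclc and 0.29 ± 0.16 for Gclm. In cortex Slc7a11 measured 18.2, 21.1 and 22.5 CPM in FAD CD38 and 13.4, 19.1 and 32.7 CPM in FAD IgG cortices, against 14.3, 18.8 and 20.5 CPM in WT cortices. Cortical Gclc measured 17.9, 25.9 and 34.2 CPM in FAD CD38 and 15.8, 26.6 and 32.3 CPM in FAD IgG cortices, against 15.7, 24.7 and 29.4 CPM in WT cortices. Cortical Gclm measured 32.6, 43.2 and 51.7 CPM in FAD CD38 and 36.5, 43.7 and 55.7 CPM in FAD IgG cortices, against 33.4, 37.7 and 50.3 CPM in WT cortices. Here too the groups overlapped. The 6 genes include glutathione synthetase (Gss), glutathione reductase (Gsr) and glucose-6-phosphate dehydrogenase (G6pdx). Over them the smallest adjusted p-values were 0.18 and 0.426 in FAD CD38 and FAD IgG hippocampi and 0.574 and 0.547 in FAD CD38 and FAD IgG cortices.

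Among the 6 glutathione transferases, which couple glutathione to electrophiles, Gstm5 fell in cortex. It measured 288, 373 and 385 CPM in FAD CD38 and 223, 386 and 431 CPM in FAD IgG cortices, against 397, 512 and 651 CPM in WT cortices. FAD CD38 cortices lay wholly below WT cortices, and FAD IgG cortices overlapped them. The log2 fold changes were -0.60 ± 0.14 (adjusted p = 0.0094) in FAD CD38 cortices and -0.59 ± 0.14 (adjusted p = 0.0149) in FAD IgG cortices, with a lower level than WT in 7 of 7 and 6 of 6 pools. The call in FAD CD38 mice ended without pool 5 (log2 fold change -0.54, adjusted p = 0.0509). That in FAD IgG mice ended without pool 5 or 9, with only 2 groups in the fit and without wells above 10% ribosomal RNA (log2 fold changes -0.59 to -0.38, adjusted p = 0.0521 to 0.216). In hippocampus Gstm5 measured 168, 408 and 430.3 CPM in FAD CD38 and 204, 389 and 480.4 CPM in FAD IgG hippocampi, against 169.6, 554 and 609 CPM in WT hippocampi, where the lowest level of the FAD CD38 group was that of mouse 2632 and the lowest of the WT group that of mouse 2756. With all hippocampi the log2 fold changes were -0.47 ± 0.21 (adjusted p = 0.243) in FAD CD38 and -0.55 ± 0.22 (adjusted p = 0.221) in FAD IgG mice. Without those 2 hippocampi they were -0.48 ± 0.14 (adjusted p = 0.035) in FAD CD38 and -0.64 ± 0.13 (adjusted p = 0.00354) in FAD IgG mice. Gstm5 was then called lower in hippocampus as well. Its own levels were among those that set the 2 hippocampi apart, so these 2 calls are given as a description. Over both regions together the log2 fold change of Gstm5 was -0.54 ± 0.14 (adjusted p = 0.00611) in FAD CD38 mice and -0.59 ± 0.14 (adjusted p = 0.00416) in FAD IgG mice, calls that ended without pool 5 (log2 fold change -0.48, adjusted p = 0.0567) and without pool 9 (log2 fold change -0.43, adjusted p = 0.0818). The other 5 transferases, Gsta4, Gstm1, Gstp1 and the membrane-bound Mgst1 and Mgst3, were not called.

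Hmox1, the inducible heme oxygenase, was counted at low levels, with 72, 70 and 26 counts over the FAD CD38, FAD IgG and WT cortices and 52, 54 and 24 over the hippocampi of the same groups. It measured 1.20, 2.80 and 4.82 CPM in FAD CD38 and 1.39, 2.73 and 3.88 CPM in FAD IgG hippocampi, against 0, 0.849 and 2.29 CPM in WT hippocampi, with overlapping ranges. In cortex it measured 0.924, 2.89 and 5.19 CPM in FAD CD38 and 1.62, 2.87 and 6.29 CPM in FAD IgG cortices, against 0, 0.857 and 1.49 CPM in WT cortices. FAD IgG cortices lay wholly above WT cortices. Hmox1 failed the filter in each region alone and passed it over both regions, where its log2 fold changes were 1.82 ± 0.33 (adjusted p = 8.96e-05) in FAD CD38 mice and 1.78 ± 0.34 (adjusted p = 0.000174) in FAD IgG mice. The highest count in a WT well was 7, under the minimum count of 10, while 3 FAD CD38 and 2 FAD IgG hippocampi and 4 FAD CD38 and 3 FAD IgG cortices reached it. Hmox1 thus passed the filter only through the FAD mice, so that it had to be higher there, and these 2 calls are given as a description. Without any filter on low counts, edgeR gave log2 fold changes of 1.82 ± 0.43 (adjusted p = 0.011) and 1.73 ± 0.45 (adjusted p = 0.0234) in FAD CD38 and FAD IgG hippocampi and of 1.97 ± 0.37 (adjusted p = 0.000376) and 2.04 ± 0.39 (adjusted p = 0.00046) in FAD CD38 and FAD IgG cortices. Nqo1, a quinone reductase and a textbook target of NRF2, measured 4.31, 5.21 and 6.24 CPM in FAD CD38 and 3.23, 5.43 and 6.21 CPM in FAD IgG hippocampi, against 1.63, 3.34 and 5.47 CPM in WT hippocampi. In cortex Nqo1 measured 1.81, 4.15 and 6.26 CPM in FAD CD38 and 2.59, 5.18 and 7.65 CPM in FAD IgG cortices, against 2.09, 3.55 and 5.14 CPM in WT cortices, and FAD and WT ranges overlapped in both regions. Its log2 fold changes were 0.70 ± 0.25 (adjusted p = 0.124) and 0.56 ± 0.25 (adjusted p = 0.303) in FAD CD38 and FAD IgG hippocampi, and 0.08 ± 0.28 (adjusted p = 0.925) and 0.50 ± 0.28 (adjusted p = 0.422) in FAD CD38 and FAD IgG cortices. Hmox2, the constitutive heme oxygenase, had log2 fold changes of 0.07 ± 0.13 and -0.19 ± 0.14 in the same hippocampi and was not called.

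Both ferritin subunits rose in FAD mice in the mean of both regions. Ftl1, the light chain, measured 725, 1228 and 1402 CPM in FAD CD38 and 865, 1228 and 1515 CPM in FAD IgG hippocampi, against 315, 773 and 857 CPM in WT hippocampi. FAD IgG hippocampi lay wholly above WT hippocampi, and of the FAD CD38 hippocampi that of mouse 2632 alone lay within the WT range. For Ftl1 the hippocampal log2 fold changes were 0.72 ± 0.16 (adjusted p = 0.00804) in FAD CD38 and 0.69 ± 0.17 (adjusted p = 0.0156) in FAD IgG hippocampi. The second of these calls ended without pool 5 or 10 and with only 2 groups in the fit (log2 fold changes 0.62 to 0.67, adjusted p = 0.0747 to 0.0795). In cortex Ftl1 measured 838, 1325 and 1521 CPM in FAD CD38 and 1036, 1297 and 1575 CPM in FAD IgG cortices, against 800.0, 978 and 1054 CPM in WT cortices, with log2 fold changes of 0.33 ± 0.12 (adjusted p = 0.116) in FAD CD38 and 0.41 ± 0.12 (adjusted p = 0.0621) in FAD IgG mice. Fth1, the heavy chain, which oxidises iron for storage, measured 4996, 8123 and 8685 CPM in FAD CD38 and 7132, 8423 and 8895 CPM in FAD IgG hippocampi, against 4170.1, 6207 and 7006 CPM in WT hippocampi. In cortex Fth1 measured 5678, 7626 and 8971 CPM in FAD CD38 and 6579, 7570.3 and 8839 CPM in FAD IgG cortices, against 4818, 5848 and 6669.5 CPM in WT cortices. FAD IgG hippocampi lay wholly above WT hippocampi, while the other ranges overlapped. In the separate regions Fth1 was not called, with log2 fold changes of 0.37 ± 0.13 (adjusted p = 0.106) and 0.41 ± 0.13 (adjusted p = 0.093) in FAD CD38 and FAD IgG hippocampi and 0.31 ± 0.12 (adjusted p = 0.152) and 0.39 ± 0.13 (adjusted p = 0.0968) in FAD CD38 and FAD IgG cortices. Without the hippocampi of mice 2756 and 2632, Fth1 was called in hippocampus, at 0.39 ± 0.11 (adjusted p = 0.0261) in FAD CD38 and 0.38 ± 0.10 (adjusted p = 0.0199) in FAD IgG mice. The levels of Fth1 were among those that set these 2 hippocampi apart, so these 2 calls are given as a description. Fth1 was called in the mean of both regions, where it rose by 0.32 ± 0.09 (adjusted p = 0.0147) in FAD CD38 and 0.39 ± 0.09 (adjusted p = 0.00351) in FAD IgG mice. Ftl1 rose there by 0.52 ± 0.11 (adjusted p = 0.000439) in FAD CD38 and 0.54 ± 0.11 (adjusted p = 0.000422) in FAD IgG mice. The call of Fth1 in FAD CD38 mice ended without pool 10 or 11 (log2 fold changes 0.27 to 0.31, adjusted p = 0.0561 to 0.0827).

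Of the metallothioneins, Mt1 and Mt2, the inducible forms made mainly by astrocytes, rose in hippocampus, and Mt2 also in cortex. Mt2 measured 150.3, 232 and 245 CPM in FAD CD38 and 113, 174 and 304 CPM in FAD IgG hippocampi, against 42.0, 91.4 and 126 CPM in WT hippocampi. FAD CD38 hippocampi lay wholly above WT hippocampi, and FAD IgG hippocampi overlapped them. For Mt2 the hippocampal log2 fold changes were 1.19 ± 0.17 (adjusted p = 9.12e-05) in FAD CD38 and 0.93 ± 0.18 (adjusted p = 0.00227) in FAD IgG hippocampi. In cortex Mt2 measured 92.4, 122 and 199 CPM in FAD CD38 and 83.1, 123 and 151 CPM in FAD IgG cortices, against 55.3, 80.9 and 104 CPM in WT cortices, with log2 fold changes of 0.68 ± 0.15 (adjusted p = 0.00676) in FAD CD38 and 0.58 ± 0.16 (adjusted p = 0.0397) in FAD IgG mice. The cortical call in FAD CD38 mice ended without pool 7 (log2 fold change 0.61, adjusted p = 0.0523). The cortical call in FAD IgG mice ended without pool 6, 7, 9 or 10, with no term for the pool, with only 2 groups in the fit and without wells above 10% ribosomal RNA (log2 fold changes 0.41 to 0.63, adjusted p = 0.0666 to 0.255). Mt1 measured 1100.5, 2243 and 2585 CPM in FAD CD38 and 1325, 2030.0 and 2841 CPM in FAD IgG hippocampi, against 518, 1201 and 1530.2 CPM in WT hippocampi, and both FAD groups overlapped WT mice. Its log2 fold changes were 0.81 ± 0.19 (adjusted p = 0.0125) in FAD CD38 and 0.75 ± 0.20 (adjusted p = 0.0293) in FAD IgG hippocampi. The first call ended without pool 10 (log2 fold change 0.76, adjusted p = 0.0541) and the second without pool 5, 6 or 10 and with only 2 groups in the fit (log2 fold changes 0.65 to 0.76, adjusted p = 0.0846 to 0.173). In cortex Mt1 measured 1195, 1583 and 1792 CPM in FAD CD38 and 1006, 1394 and 1793 CPM in FAD IgG cortices, against 839, 1149.9 and 1292 CPM in WT cortices, with log2 fold changes of 0.44 ± 0.13 (adjusted p = 0.0586) in FAD CD38 and 0.32 ± 0.14 (adjusted p = 0.253) in FAD IgG mice. Over both regions Mt2 rose by 0.93 ± 0.13 (adjusted p = 6.96e-07) in FAD CD38 and 0.74 ± 0.14 (adjusted p = 0.000125) in FAD IgG mice. Mt1 rose by 0.61 ± 0.13 (adjusted p = 0.000682) in FAD CD38 and 0.52 ± 0.14 (adjusted p = 0.00784) in FAD IgG mice. The call of Mt1 in FAD IgG mice ended without pool 6 or 10 (log2 fold changes 0.44 to 0.47, adjusted p = 0.0714 to 0.0727). Mt3 was not called in any comparison of FAD with WT mice. It measured 30.1, 51.5 and 59.3 CPM in FAD CD38 and 17.5, 37.7 and 56.6 CPM in FAD IgG hippocampi, against 18.1, 39.1 and 50.7 CPM in WT hippocampi. In cortex Mt3 measured 23.7, 30.8 and 35.8 CPM in FAD CD38 and 13.7, 29.1 and 42.9 CPM in FAD IgG cortices, against 22.6, 32.0 and 44.3 CPM in WT cortices. The groups overlapped in both regions, with log2 fold changes of 0.45 ± 0.21 (adjusted p = 0.266) and -0.01 ± 0.22 (adjusted p = 0.986) in FAD CD38 and FAD IgG hippocampi and -0.17 ± 0.18 (adjusted p = 0.672) and -0.25 ± 0.19 (adjusted p = 0.577) in FAD CD38 and FAD IgG cortices.

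Mt1 and Mt2 lie side by side, and their levels were set against each other over the mice of each group and region, on the log2 CPM scale, in 6 relations with exact permutation tests over all pairings. In FAD IgG hippocampi Pearson's r was 0.94 (permutation p = 0.00317, adjusted 0.0190) and Spearman's rho 0.89 (permutation p = 0.0123, adjusted 0.0369). Without the 2 mice farthest from the median of Mt1, r was 0.87. In FAD CD38 cortices r was 0.83 (permutation p = 0.0200, adjusted 0.0401) and rho 0.93 (permutation p = 0.00675, adjusted 0.0369). Leaving out the 2 farthest mice gave r of 0.82. In WT hippocampi r was 0.96 (permutation p = 0.00717, adjusted 0.0215) and rho 0.74 (permutation p = 0.0458, adjusted 0.0917). Without the 2 farthest mice r was 0.18, so that this relation rests on them. In FAD CD38 hippocampi r was -0.08 (permutation p = 0.901, adjusted 0.901) and rho 0.07 (permutation p = 0.906), and r was 0.12 without the 2 farthest mice. Among FAD IgG cortices r was 0.67 (permutation p = 0.0978, adjusted 0.117) and rho 0.54 (permutation p = 0.236), and r was 0.83 without the 2 farthest mice. In WT cortices r was 0.70 (permutation p = 0.0340, adjusted 0.0510) and rho 0.58 (permutation p = 0.108), and r was 0.16 without the 2 farthest mice. Pool effects were also taken out, as fitted over the 3 groups of a region together, since FAD CD38 mice number 1 a pool. The calls in FAD IgG hippocampi, at r of 0.82 (permutation p adjusted to 0.0548), and in FAD CD38 cortices, at r of 0.26 (permutation p adjusted to 0.587), then ended. On the same levels r was 0.45 in FAD CD38 hippocampi, 0.92 in WT hippocampi (permutation p adjusted to 0.0419), 0.63 in FAD IgG cortices and 0.78 in WT cortices (permutation p adjusted to 0.0419). The difference between groups was not tested.

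**Figure D3:**
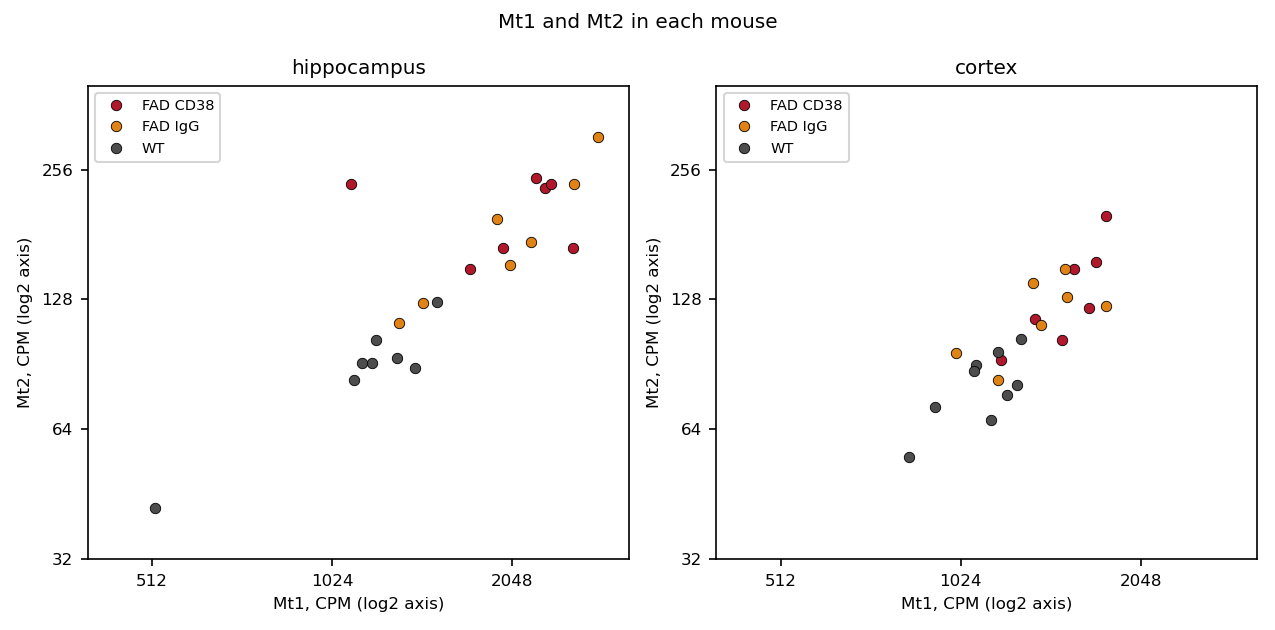
Mt2 against Mt1 in CPM on log2 axes, 1 point a mouse, for hippocampus and cortex and for FAD CD38, FAD IgG and WT mice. Mouse 2632 lies at 1100.5 CPM of Mt1 and 237 CPM of Mt2 in the hippocampus, to the left of the other FAD CD38 mice, and mouse 2756 at 518 and 42.0 CPM is the lowest WT hippocampus in both genes.

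Between FAD CD38 and FAD IgG mice no member was called in hippocampus or in cortex by edgeR, where 0% and 0% of all genes were called. At an unadjusted p under 0.05 there was also no member in either region, and DESeq2 and limma with sample quality weights called 0 members as well. The members' log2 fold changes of FAD CD38 over FAD IgG lay between -0.24 and 0.46 in hippocampus and between -0.43 and 0.28 in cortex. For Nfe2l2 the estimate was 0.00 (95% interval -0.28 to 0.28) in hippocampus and -0.18 (95% interval -0.57 to 0.20) in cortex. For Prdx6 it was -0.04 (95% interval -0.29 to 0.22) in hippocampus and -0.22 (95% interval -0.50 to 0.07) in cortex. For Mt2 it was 0.26 (95% interval -0.12 to 0.64) in hippocampus and 0.09 (95% interval -0.24 to 0.43) in cortex. These intervals leave room for differences of either sign, and a p above the threshold does not show that the 2 injections acted alike. Ftl1 stood at 0.03 (95% interval -0.33 to 0.39) in hippocampus and Gstm5 at -0.00 (95% interval -0.31 to 0.30) in cortex. The highest hippocampal estimate was that of Mt3, 0.46 (95% interval -0.00 to 0.93), and the lowest that of Prdx3, -0.24 (95% interval -0.50 to 0.02). Prdx3, named after its values were seen, was lower in the FAD CD38 than in the FAD IgG hippocampi in 6 of 6 pools, and it was the 1 member with the same sign in every pool in either region. Among 39 members in 2 regions, 1 such case can arise by chance, and its share over all genes was not counted. The lowest of its levels in FAD CD38 hippocampi was that of mouse 2632. The lowest cortical estimate was that of Nqo1, -0.43 (95% interval -1.03 to 0.18). Without the hippocampi of mice 2756 and 2632, 0 members were called in hippocampus and the estimates ran from -0.22 to 0.49. Mt3 then stood at 0.49 (95% interval 0.06 to 0.91), with an unadjusted p under 0.05, and Prdx3 at -0.15 (95% interval -0.33 to 0.02). In the mean of both regions 0 members and 0% of all genes were called by limma, and Mt3, at 0.33 (95% interval 0.00 to 0.65), was the 1 member with an unadjusted p under 0.05. Among the 38 members of the first of these fits and the 39 of the second, 1 such p can arise by chance. Shares of all genes at an unadjusted p under 0.05 are not given here, so Mt3 is not set apart.

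**Figure D4:**
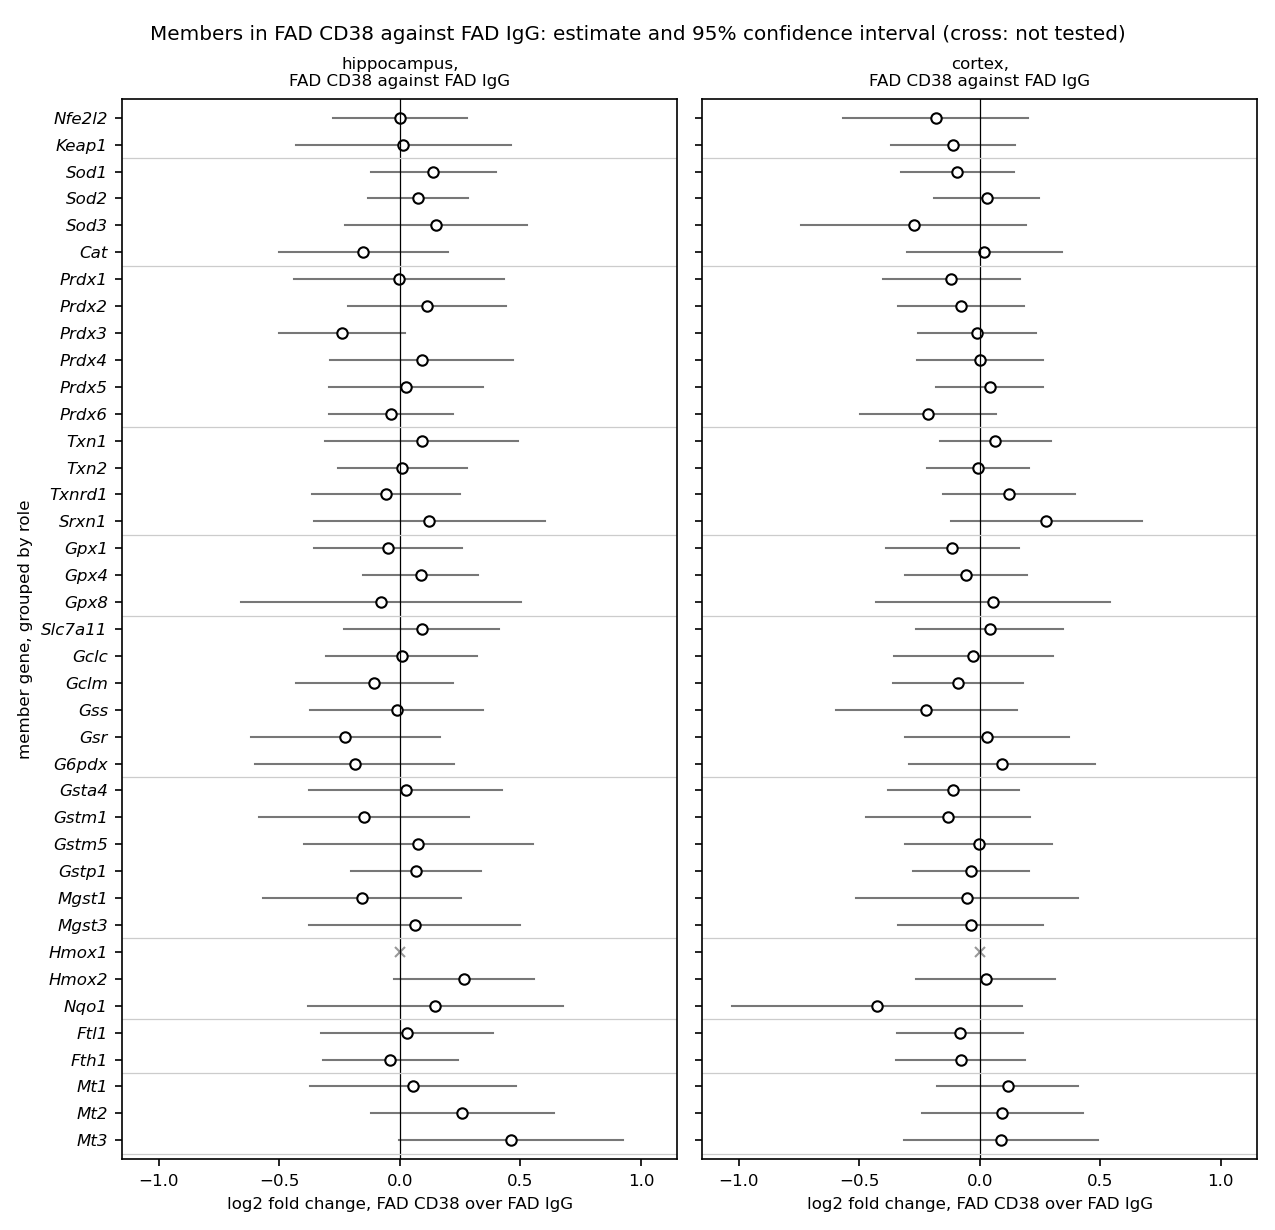
Log2 fold changes of the members in FAD CD38 over FAD IgG mice, in hippocampus and cortex, with points for estimates and bars for 95% intervals from edgeR. No point is filled, since no member reached an adjusted p under 0.05, and the estimates lie between -0.24 and 0.46 in hippocampus and between -0.43 and 0.28 in cortex.

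Whether a difference from WT mice was larger in hippocampus than in cortex was tested within limma, with the mouse as a block. No member was called for FAD CD38 against WT, where 0.126% of all genes were, for FAD IgG against WT, where 0.223% were, or for FAD CD38 against FAD IgG, where 0% were. At an unadjusted p under 0.05 there were 8, 6 and 0 members, and limma with sample quality weights called 4, 2 and 0. The shares of all genes above are those of the unweighted fit at adjusted p. None is given here for the unadjusted p or for the weights, so these counts do not set the members apart. Gpx1 had the smallest p among the members, with a hippocampal log2 fold change 0.55 ± 0.16 (adjusted p = 0.178) above the cortical one in FAD CD38 mice and 0.52 ± 0.16 (adjusted p = 0.23) above it in FAD IgG mice. For Nfe2l2 the hippocampal minus the cortical effect was 0.40 ± 0.22 (adjusted p = 0.47) in FAD CD38 and 0.24 ± 0.21 (adjusted p = 0.791) in FAD IgG mice. With sample quality weights the members called were all larger in hippocampus. In FAD CD38 mice they were Gpx1, at 0.62 ± 0.13 (adjusted p = 0.00672), Prdx6, at 0.48 ± 0.13 (adjusted p = 0.0351), Prdx1, at 0.47 ± 0.13 (adjusted p = 0.0358), and Ftl1, at 0.37 ± 0.11 (adjusted p = 0.0487). In FAD IgG mice they were Gpx1, at 0.62 ± 0.13 (adjusted p = 0.00394), and Mt1, at 0.52 ± 0.15 (adjusted p = 0.0408). For Gpx1, Ftl1 and Mt1, called in hippocampus only, a difference between the regions thus depends on these weights, and for Gstm5, called in cortex only, neither fit called one.

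In the 8 WT mice with both regions, 11 members were lower and 1 was higher in hippocampus than in cortex, while 13.5% of all genes were lower and 14.3% higher by edgeR with the mouse as a block. The lower members came from 7 of the 10 roles, and none was a regulator, a metallothionein or a heme or quinone enzyme. Mgst3, a membrane-bound glutathione transferase, measured 128, 368 and 409 CPM in WT hippocampi, against 394, 577 and 649 CPM in WT cortices, and its log2 fold change was -0.83 ± 0.12 (adjusted p = 1.35e-05). Gpx1 measured 86.4, 167 and 210.4 CPM in WT hippocampi, against 167, 247 and 285 CPM in WT cortices (-0.68 ± 0.10, adjusted p = 2.61e-05). Sod3, the extracellular superoxide dismutase, measured 5.85, 8.03 and 9.48 CPM in WT hippocampi, against 8.26, 12.7 and 18.6 CPM in WT cortices (-0.72 ± 0.17, adjusted p = 0.0028). The ranges include the hippocampus of mouse 2756, which was the lowest WT hippocampus for Gpx1 and Mgst3. The cortical ranges also include mouse 2755, which has no hippocampus here and is not among the 8 mice tested. Its cortex was the lowest WT cortex for both genes. Among the 8 mice the lowest cortex held 481 CPM of Mgst3, above every WT hippocampus, and 197 CPM of Gpx1. The log2 fold change was -0.52 ± 0.12 (adjusted p = 0.00242) for Ftl1, -0.52 ± 0.13 (adjusted p = 0.00392) for Prdx4 and -0.42 ± 0.12 (adjusted p = 0.00865) for Gstm1. Gpx4, Sod1, G6pdx, Slc7a11 and Srxn1 had log2 fold changes from -0.39 to -0.30, with adjusted p-values up to 0.0333. Gss, which joins glycine to gamma-glutamylcysteine in the last step of glutathione synthesis, was the 1 member higher in WT hippocampi (0.39 ± 0.13, adjusted p = 0.0334). That call ended without pool 5, 6, 10 or 11, by DESeq2 with the mouse as a block and without the block (log2 fold changes 0.29 to 0.40, adjusted p = 0.0633 to 0.101). Mt1, Mt2 and Mt3 had log2 fold changes of 0.00 ± 0.14, 0.12 ± 0.13 and 0.09 ± 0.12 between the regions of WT mice and were not called. Without the replicate block for the mouse, 0 members were higher and 8 lower, and without mice 2756 and 2632, 3 were higher and 12 lower. Over all 23 mice with both regions, FAD mice included, 7 members were higher and 13 lower in hippocampus, beside 24% and 22.7% of all genes. There all 3 metallothioneins were higher in hippocampus, at 0.31 ± 0.09 (adjusted p = 0.00272) for Mt1, 0.47 ± 0.09 (adjusted p = 5.12e-05) for Mt2 and 0.35 ± 0.09 (adjusted p = 0.00132) for Mt3. The other 4 higher members were Gss, Gclc, Mgst1 and Txnrd1.

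**Figure D5:**
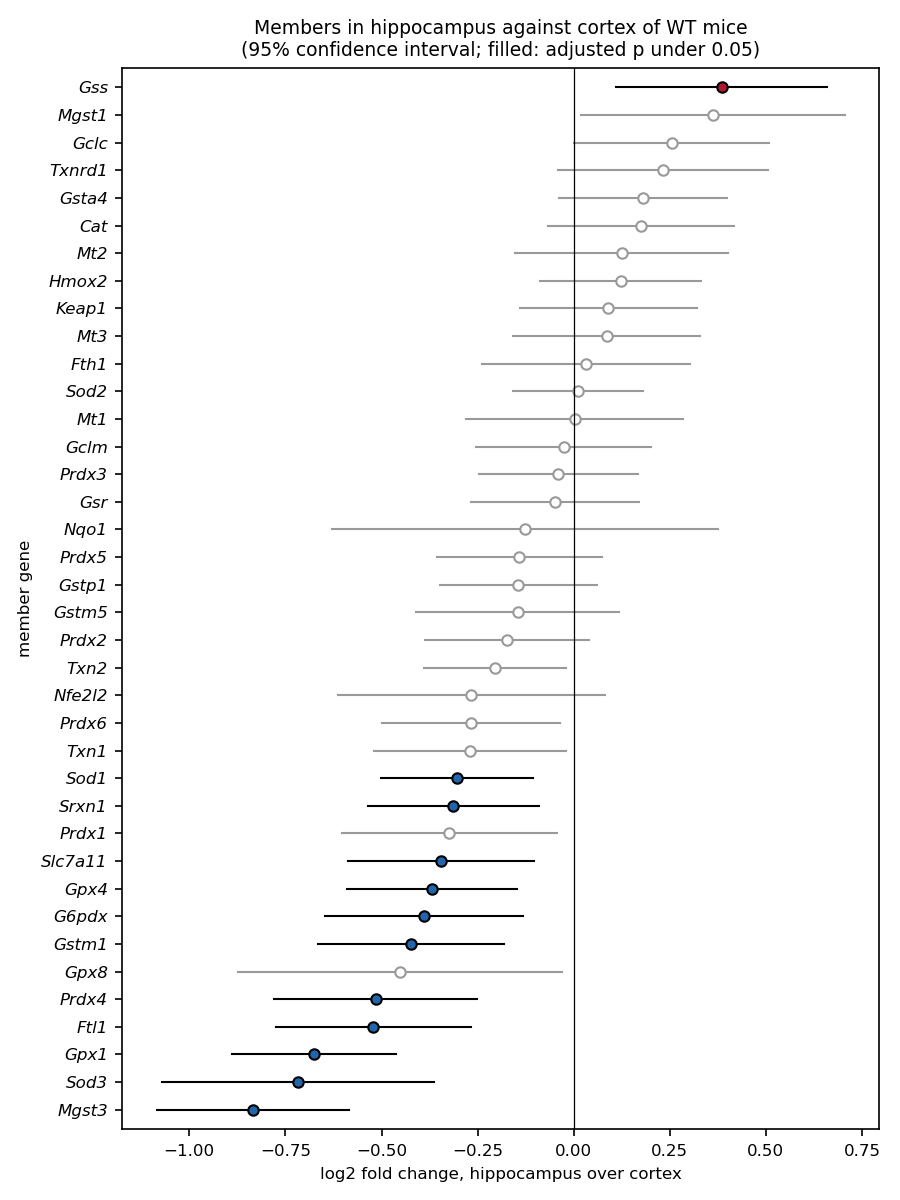
Log2 fold changes of the members in WT hippocampus over WT cortex, sorted by size, with 95% intervals from edgeR with the mouse as a block (8 mice). Mgst3 lies lowest at -0.83 and Gss, the 1 filled point above 0, at 0.39.

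Other genes of the same pathways, from lists chosen with earlier results of these data known, were mostly not called. Of 48 further antioxidant, glutathione and thioredoxin genes, of which 39 were tested in hippocampus and 42 in cortex, 1 rose in each FAD group in hippocampus, beside 4.56% of all genes in FAD CD38 and 4.48% in FAD IgG mice, and none was called in cortex. It was Msrb1, which repairs oxidised methionine, at 0.55 ± 0.15 (adjusted p = 0.0335) in FAD CD38 and 0.57 ± 0.15 (adjusted p = 0.0293) in FAD IgG hippocampi. Over both regions together Msrb1 rose and Glrx2, a mitochondrial glutaredoxin, fell in FAD IgG mice, at 0.40 ± 0.11 (adjusted p = 0.016) and -0.26 ± 0.07 (adjusted p = 0.0137). Of 32 further genes of the Nfe2l2 pathway, with 27 tested, Tspo, a protein of the outer mitochondrial membrane that microglia express, rose in all 4 comparisons with WT mice. Its log2 fold changes were 1.21 ± 0.21 (adjusted p = 0.00063) and 1.26 ± 0.21 (adjusted p = 0.000493) in FAD CD38 and FAD IgG hippocampi and 0.79 ± 0.13 (adjusted p = 0.000193) and 0.83 ± 0.13 (adjusted p = 0.000161) in FAD CD38 and FAD IgG cortices. Blvrb, a biliverdin reductase, also rose in FAD CD38 hippocampi (0.55 ± 0.14, adjusted p = 0.0276) and Sqstm1, the autophagy receptor p62, in FAD CD38 cortices (0.36 ± 0.11, adjusted p = 0.0498). Beside these calls, 4.56% and 4.48% of all genes rose in FAD CD38 and FAD IgG hippocampi and 3.3% and 3.34% in FAD CD38 and FAD IgG cortices. In the mean of both regions, Pgd of the pentose phosphate pathway (0.38 ± 0.10, adjusted p = 0.0129) and the exporter Abcc4 (0.62 ± 0.18, adjusted p = 0.0249) rose in FAD IgG mice and Ugdh, a UDP-glucose dehydrogenase, in FAD CD38 mice (0.37 ± 0.11, adjusted p = 0.0308). Of all genes in that mean, 5.96% rose and 2.19% fell in FAD IgG mice, and 5.9% rose in FAD CD38 mice.

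Of 36 further genes of iron, zinc and copper handling, 27 were tested in hippocampus and 26 in cortex, and 3 rose in hippocampus and 2 in cortex in each FAD group. Over all genes, 4.56% and 4.48% rose in FAD CD38 and FAD IgG hippocampi and 3.3% and 3.34% in FAD CD38 and FAD IgG cortices. Slc11a1, a divalent metal transporter of phagosomes in macrophages and microglia, rose by 3.27 ± 0.30 (adjusted p = 2.04e-07) and 3.18 ± 0.30 (adjusted p = 4.11e-07) in FAD CD38 and FAD IgG hippocampi and by 2.65 ± 0.26 (adjusted p = 9e-08) and 2.57 ± 0.27 (adjusted p = 3.3e-07) in FAD CD38 and FAD IgG cortices. Lcn2, which binds iron through siderophores, rose by 3.53 ± 0.52 (adjusted p = 0.000111) in FAD CD38 and 3.27 ± 0.54 (adjusted p = 0.000411) in FAD IgG hippocampi. The counts of Slc11a1 and Lcn2 are not given here, so whether they passed the filter only through the FAD mice, as Hmox1 did, is not shown. Their calls are given as a description. Slc39a14, a zinc and iron importer, rose by 1.12 ± 0.29 (adjusted p = 0.0238) in FAD CD38 and 1.29 ± 0.30 (adjusted p = 0.00882) in FAD IgG cortices. The copper pump Atp7a rose in FAD CD38 hippocampi (1.02 ± 0.22, adjusted p = 0.00504) and transferrin, Trf, in FAD IgG hippocampi (0.76 ± 0.21, adjusted p = 0.0403). Slc31a2, a copper transporter, rose in FAD IgG mice in the mean of both regions (0.46 ± 0.15, adjusted p = 0.0475), where 5.96% of all genes rose. No gene of these 3 lists was called between FAD CD38 and FAD IgG mice by edgeR or limma. Without the hippocampi of mice 2756 and 2632, the hippocampal calls named for the 3 lists remained, apart from that of Blvrb in FAD CD38 mice, at 0.38 ± 0.12 (adjusted p = 0.0539).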

How the data were processed

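Bulk mcSCRB-seq libraries of 47 wells (24 mice, 2 regions, 7 library pools) were deposited by the authors as 1 table of raw counts per gene symbol and well, and the counts are whole numbers with no normalization, per the file headers and the values. The authors' tools included STAR 2.5.3a and bcl2fastq 2.17, per the submitters' processing notes. The genome build, the counting program and any collapse of molecular identifiers were not given in the sources used here. RNA was purified by chloroform extraction, per the labels' protocols. Each well's mouse, region and group came from the deposited sample sheet, since the samples in GEO are pools of mice. The members and lists were chosen with earlier results of these data known.

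Genes needed a minimum count of 10 in enough wells and 15 in total (filterByExpr). In each region the 3 groups entered 1 edgeR 4.0.16 robust quasi-likelihood fit (R 4.3.3) with TMM factors and the library pool as an additive factor. Effects averaged over the regions, and their difference, came from limma 3.58.1 (voom, with a correlation of 0.256 within a mouse as block), and hippocampus against cortex from edgeR with the mouse as block. Tests were two-sided, and p-values were adjusted by Benjamini-Hochberg over all genes, with a threshold of 0.05. Replicates are mice. Same-numbered regions come from the same mouse, which is where the pairing comes from. The lowest chi-square per degree of freedom between replicates of a group was 2.738, so each well was counted as a sample of its own. The scripts were tested on simulated data.

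Total counts of 1270918 to 5101368 a well set the precision, and intervals at 95% are those of the fits. The square root of the common dispersion, the variation between mice beyond counting, was 0.198 in cortex and 0.231 in hippocampus. All members called between FAD and WT mice in the main fits were named with values. So were Nfe2l2, Keap1, Gpx4, Sod1, Cat, Nqo1, Hmox1, Gclc, Gclm, Slc7a11, Mt1, Mt2 and Mt3. Of the other pathway genes, up to 6 of smallest adjusted p per comparison of groups and direction were named. Members called only under an alternative were not all named. The alternatives were DESeq2 1.42.0, its size factors in edgeR, other filters, no term for the pool, only 2 groups in the fit, sample quality weights, mitochondrial genes left out, the ribosomal RNA share as a covariate, wells left out, and each pool left out in turn. Leaving out wells rich in choroid plexus RNA, the hippocampi of mice 2756 and 2632, and wells above 10% ribosomal RNA from the fits over both regions was chosen after seeing the data. The 2 wells of pool 8 with conflicting labels entered only the comparison of regions over all mice.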

Additional observations from a re-analysis of the deposited data

Results flagged for a closer look

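For each member, region and group, the highest or lowest mouse was compared with the rest of its group by Dixon's test at the 95% level, on log2 CPM, in 234 sets of 7 to 9 mice. A mouse stood apart in 54 of them, and chance gives about 1 in 20. Most of these fell on 2 wells, both high in ribosomal RNA (23.7% in the hippocampus of mouse 2756 and 17.2% in that of mouse 2632), the second also high in choroid plexus markers. After the pool means were removed, 29 sets had such a mouse.

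The FAD CD38 hippocampus of mouse 2632 stood apart in 18 members, with CPM of 17.5 for Keap1, 384 for Prdx1, 29.4 for Prdx3, 213 for Prdx5, 392 for Sod1 and 20.3 for Cat. Its further values were 125 for Txn1, 51.1 for Gclm, 8.40 for Gss, 19.6 for Gsr, 40.6 for Gsta4 and 118 for Gstm1. The last of them were 168 for Gstm5, 14.7 for Mgst1, 153 for Mgst3, 98.0 for Srxn1, 725 for Ftl1 and 4996 for Fth1. Of these, Sod1, Gclm and Srxn1 were above the other FAD CD38 hippocampi and the rest below. The cortex of the same mouse stood apart with 7.11 for Nfe2l2, 429 for Prdx1, 142 for Txn1 and 43.6 for Gsta4.

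The WT hippocampus of mouse 2756 stood apart in 21 members, with CPM of 16.5 for Keap1, 203 for Prdx1, 130.5 for Prdx2, 15.2 for Prdx4, 179 for Prdx5, 86.4 for Gpx1 and 72.0 for Gpx4. Its further values were 14.0 for Cat, 65.5 for Txn1, 105 for Txn2, 22.6 for Gsr, 33.8 for Gsta4, 145 for Gstm1 and 169.6 for Gstm5. The last of them were 139 for Gstp1, 128 for Mgst3, 6.17 for G6pdx, 315 for Ftl1, 4170.1 for Fth1, 518 for Mt1 and 42.0 for Mt2, each below the other WT hippocampi.

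The other mice each stood apart in few members. Among FAD CD38 cortices mouse 2790 had 18.2 for Slc7a11. Among FAD IgG mice, the values were 123 for Txn1 and 56.4 for Gclm in the hippocampus of mouse 2770, 25.6 for Txnrd1 in that of mouse 2588 and 38.6 for Gsta4 in the cortex of mouse 2771. Among WT mice, they were 19.2 for Txnrd1 in the hippocampus of mouse 2592, 5.45 for Nfe2l2 and 7.96 for Mgst1 in its cortex, and 50.3 for Gclm, 14.3 for Slc7a11 and 800.0 for Ftl1 in the cortex of mouse 2755.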

How the results depend on the processing

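The log2 fold changes of the 39 results for single members called between FAD and WT mice, each under 12 to 21 alternatives (624 in all), kept their direction in every case. The call was kept in 571 cases and ended in 53, and 21 of the 39 results never lost it. Among these 21 are the 2 calls of Hmox1 in the mean of both regions, each under 12 alternatives. Since Hmox1 passed the filter only through the FAD mice, its kept calls say nothing on robustness. Between FAD CD38 and FAD IgG mice no alternative called a member. The counts of members called moved by more than 1.5 times as follows. In FAD CD38 cortices against WT, 5 rose with sample quality weights, with the ribosomal RNA share as a covariate and without wells above 10% ribosomal RNA, where Hmox1 passed the filter and Mt1 was called. In the same comparison 3 fell with only the 2 groups compared and with quality weights, 5 with the covariate and 2 without those wells. In FAD IgG cortices 5 rose with DESeq2, quality weights or the covariate, and 0 fell with only the 2 groups compared or without wells high in ribosomal RNA. In FAD CD38 hippocampi 10 rose with the covariate, and 4 fell with quality weights and without those wells, 1 with the covariate, 1 without both hippocampi of mice 2756 and 2632 and 1 without that of mouse 2756. In FAD IgG hippocampi 2 fell with quality weights, 1 with the covariate, 1 without wells high in ribosomal RNA, 2 without both hippocampi and 1 without that of mouse 2756. In the mean of both regions, 7 fell in FAD CD38 mice with quality weights, 7 without wells high in ribosomal RNA and 1 without wells rich in choroid plexus RNA, and in FAD IgG mice 6 fell with quality weights, 1 without wells high in ribosomal RNA and 1 with no term for the pool. For the difference between regions, quality weights gave 4 members in FAD CD38 and 2 in FAD IgG mice. The cause was not tested in any of these. Shares of all genes called under these settings are not given here, so the counts do not set the members apart from other genes.

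With each library pool left out in turn, 1 to 5 members rose and 0 to 2 fell in FAD CD38 cortices, and 2 to 4 rose and 0 to 1 fell in FAD IgG cortices. Hmox1 is among those that rose in cortex without pool 6, 8 or 9. Shares of all genes called are not given for the runs without a pool. In hippocampus 5 to 7 rose and 0 to 1 fell in FAD CD38 mice, and 3 to 6 rose and 0 to 1 fell in FAD IgG mice. In the mean of both regions 6 to 8 rose and 0 to 6 fell in FAD CD38 mice, and 6 to 9 rose and 0 to 3 fell in FAD IgG mice, with Hmox1 counted among those that rose. In WT mice 0 to 3 were higher and 8 to 15 lower in hippocampus than in cortex. There, the fit with no replicate block for the mouse gave 0 higher members, DESeq2 with the block 0, and the fit without mice 2756 and 2632 gave 3. For Mt1 with Mt2, taking out the pool effects gave r of 0.264 (adjusted permutation p = 0.587) in FAD CD38 cortices, 0.823 (adjusted permutation p = 0.0548) in FAD IgG hippocampi, 0.446 (adjusted permutation p = 0.392) in FAD CD38 hippocampi, where the sign turned, and 0.781 (adjusted permutation p = 0.0419) in WT cortices, where a prior count of 0.5 gave 0.706 (adjusted permutation p = 0.04998).

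Low depth showed at Hmox1, which passed the filter in neither region alone.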
